A study of Homo sapiens with 6 samples.

Results

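Peaks of a tagged YAP mutant, with no TEAD or YAP peak at them, were described in 8 human genes, in 7 of which they form closely spaced rows. ChIP-seq, which sequences DNA recovered with a protein of interest, was done in the human cell line CClp1, an established line from a bile duct cancer. There was 1 library each for a YAP antibody, a TEAD antibody, the tagged protein Flag-Bio-YAP5SA (YAP5SA below), an unrelated IgG, Input DNA and BirA (a bacterial biotin ligase), named in the design text as the control specific to the tagged protein. The YAP5SA, TEAD and YAP libraries each have 1 peak list. The design text mentions 3 YAP runs, and from which of them the YAP list comes was not established. The control libraries (IgG, Input, BirA) were not analysed here, and their background is therefore not given. The sources used here do not say how YAP5SA was introduced into the cells or whether the line that carries it is a clone, and read depth is unknown for all 3 lists. The members were all peaks that overlap the hg19 span of NF2, SCRIB, DLG1, LLGL2, MARK1, YAP1, ZCCHC11 or ILKAP by at least 1 bp. These were 60 of 22804 peaks: 52 of 9616 in the YAP5SA list, 6 of 9321 in the TEAD list and 2 of 3867 in the YAP list. The spans were selected on the peak positions in these lists, namely rows of YAP5SA peaks without a TEAD or YAP peak. The counts of YAP5SA peaks, their spacing and their lack of partners therefore describe the choice. No test was made of them. YAP1 has no such row, and the ground for including it is not stated in the sources used here. With 1 library per group no value has a replicate error.

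YAP is a transcriptional co-activator that reaches DNA mainly through TEAD factors. In the Hippo pathway LATS kinases phosphorylate YAP on serines and keep it out of the nucleus, and in YAP5SA such serines are changed to alanine. Merlin, the product of NF2, acts upstream of the LATS kinases, and SCRIB, DLG1 and LLGL2 belong to the Scribble module that sets the basolateral side of epithelial cells. A cloned cDNA holds the exons of a gene without its introns, and reads from such DNA would align to exons. Whether the rows of YAP5SA peaks sit on exons was the question behind the choice of these genes. It was not tested, because no exon positions on hg19 were used here. The name polarity genes covers only some of the 8: ZCCHC11 is a terminal uridylyltransferase that adds uridines to RNA, and ILKAP is a protein phosphatase that binds integrin-linked kinase.

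The files hold no sequence, so the peaks themselves are not shown. Of the 8 genes, 4 had a promoter in the RefSeq table (build GRCh38.p14). The 250 bases before the start of YAP1 (chr11:102110197-102110446, plus strand) are printed because TEAD peaks gather at the start of that span. Those before the upstream start of NF2 (chr22:29603306-29603555, plus strand) are printed because a YAP5SA peak lies close to the start of that one. Capitals mark GGAATG, the core of the TEAD motif, which was searched on both strands (GGAATG or CATTCC).
YAP1: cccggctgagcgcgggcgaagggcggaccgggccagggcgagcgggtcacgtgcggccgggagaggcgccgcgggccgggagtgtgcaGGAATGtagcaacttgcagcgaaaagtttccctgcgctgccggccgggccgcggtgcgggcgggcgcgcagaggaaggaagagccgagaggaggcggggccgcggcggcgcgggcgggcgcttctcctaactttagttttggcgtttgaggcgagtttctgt
NF2: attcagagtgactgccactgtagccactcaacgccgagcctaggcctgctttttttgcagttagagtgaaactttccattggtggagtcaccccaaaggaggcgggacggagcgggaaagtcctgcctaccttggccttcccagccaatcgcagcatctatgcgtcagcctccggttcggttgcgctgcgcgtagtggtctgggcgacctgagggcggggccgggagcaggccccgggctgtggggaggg
The motif occurs 1 time in the YAP1 window, on the plus strand from base 89, and in none of the NF2, DLG1 or ILKAP windows. Of all 35116 promoter windows of this length in the table, 11.9% hold it. A match is a string of letters and not a measured site, and these windows were not placed on hg19, so their position against the peaks was not tested.

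The 8 spans cover 868 kb, which is 0.0281% of the 3092 Mb up to the last peak of each chromosome. They hold 0.541% of the YAP5SA list. That is 5.99 YAP5SA peaks per 100 kb against 0.310 over the whole list, a ratio of 19.3. TEAD peaks stood at 0.691 per 100 kb in the spans against 0.298 in their list, and YAP peaks at 0.230 against 0.123. These ratios, 2.32 and 1.87, rest on 6 and 2 peaks. Of the 6 TEAD peaks, 5 lay in YAP1 and 1 in NF2, and no other span held one. The higher TEAD density was therefore that of YAP1 and NF2 alone. None of the 52 YAP5SA peaks met a TEAD or YAP peak, and 94.2% of the whole YAP5SA list met neither. This lack of partners is close to that of the whole list, but not to that of its high-scoring peaks. Of the 303 YAP5SA peaks with a peak caller's score of at least 100, 182 met a TEAD peak. Only 118 of the 303 met neither list, and these include all 25 such peaks of the spans. The lack of partners was part of how the genes were chosen. The median distance from a YAP5SA peak of the spans to the nearest TEAD peak was 145 kb (range 6.15 to 389.8 kb), against 178 kb in the whole list.

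**Figure D1:**
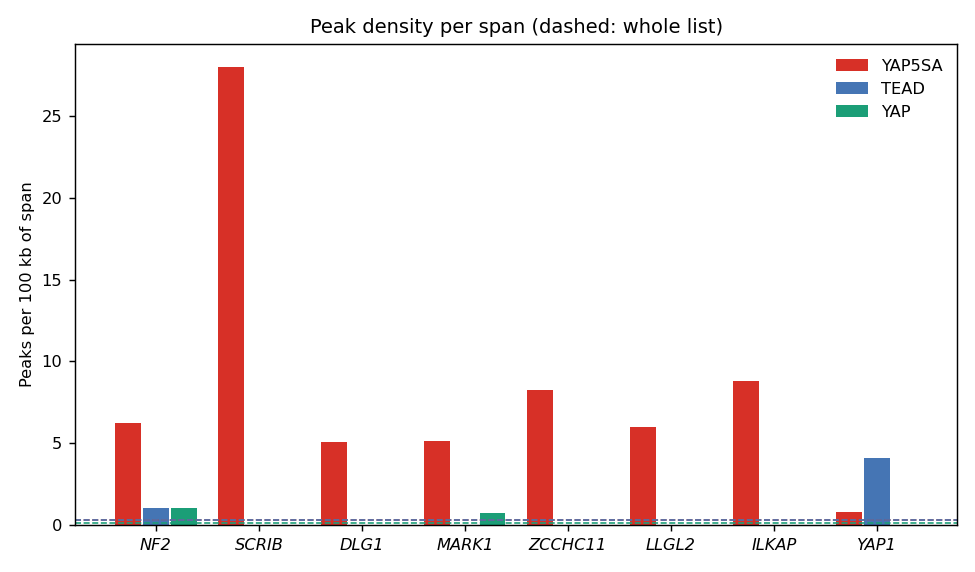
Peaks per 100 kb of span for each gene and list (bars), with the density of each whole list as a dashed line. SCRIB has the highest YAP5SA density at 28 per 100 kb, YAP1 the lowest at 0.813, and YAP1 is the span with the most TEAD peaks.

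The YAP5SA peaks of the spans stood closer together than those of the list. Between neighbouring YAP5SA peaks of a span the median gap was 4.78 kb over 44 gaps, against 188 kb over the 9567 gaps of the whole list. A row was defined as 3 or more YAP5SA peaks, each within a set distance of the next that is also used to join neighbouring enhancers in super-enhancer calling. The widest gap inside a row of the spans was 12.4 kb. Of the 52 peaks, 42 (80.8%) lay in 9 rows, against 1.41% of the whole list. All 9 rows were free of TEAD and YAP peaks, and 0.749% of the list lay in such rows. YAP1 was the span without a row. Of the YAP5SA peaks outside the spans, the nearest to an edge lay 10.6 kb beyond the end of NF2 (score 71.0). The last peak inside the NF2 span lay farther from that end, at 44.3 kb. Of the peaks within a span, the nearest to an edge was the last one of SCRIB (score 308), at 0.444 kb. Beyond that end the nearest outside peak lay 39.3 kb away.

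**Figure D2:**
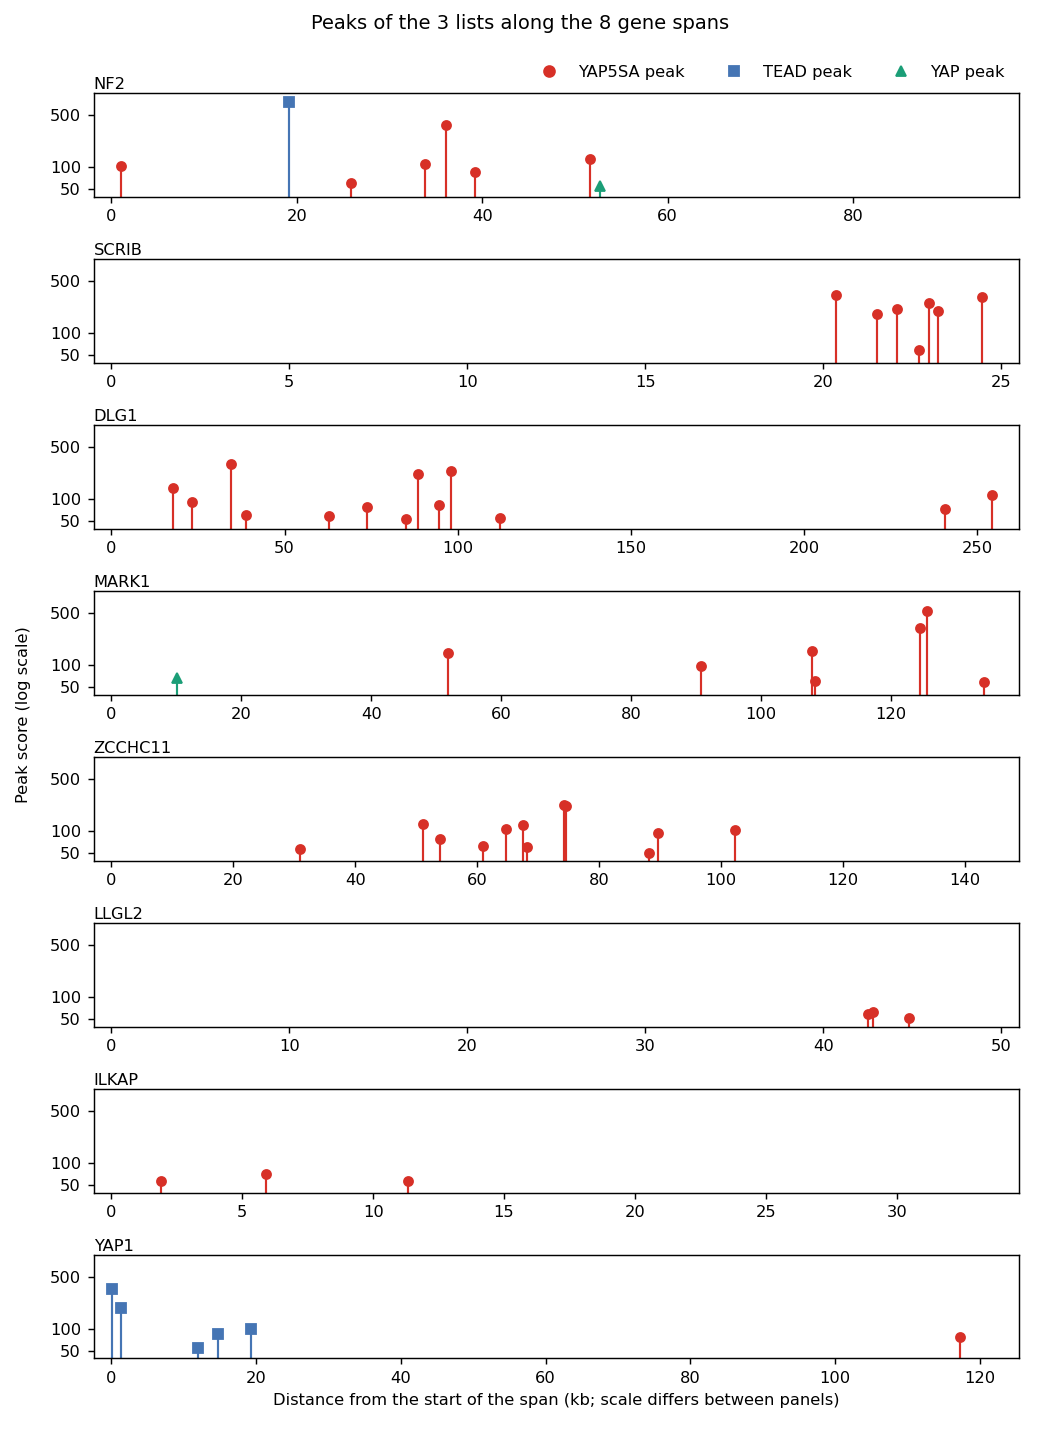
Peaks of the YAP5SA (circles), TEAD (squares) and YAP (triangles) lists in the 8 spans, by distance from the start of the span (kb) and by score (log scale). The YAP5SA peaks of SCRIB and LLGL2 lie near one end of the span. Those of DLG1 reach over most of it, with an empty stretch of 128 kb before the last 2. The TEAD peak of NF2 lies between its first 2 YAP5SA peaks. The TEAD peaks of YAP1 lie toward the start of the span and its YAP5SA peak near the end.

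NF2 had 6 YAP5SA peaks over 50.8 kb of its 96 kb span on chromosome 22. In order along the chromosome their scores were 102, 60.7, 111, 368, 85.2 and 129.8. The score is the deposited value of the peak caller, on a scale that is not stated. Strong and weak peaks here mean peaks of high and low score, not a measured amount of binding. In the YAP5SA list the score has 50 as its lowest value and 57.0 as its median. All 6 peaks lay above that median. The strongest, from 30035052 to 30035216, ranked 15 of 9616. The widths were 200, 111, 195, 165, 109 and 161 bp. A row of 5 peaks ran from 30024768 to 30050724, and the remaining peak began 0.913 kb from the start of the span.

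The NF2 span also held the strongest TEAD peak of the 8 spans, from 30017655 to 30018618, with a score of 753 (rank 237 of 9321) and a width of 964 bp. No YAP5SA peak was listed there, and the nearest lay 6.15 kb away. The YAP list had 1 peak in NF2, from 30051572 to 30051751, with a width of 180 bp and a score of 55.8 (rank 2396 of 3867). It lay 0.848 kb from the last YAP5SA peak of the row. This was the shortest distance between a YAP5SA peak of the spans and a peak of another list.

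SCRIB encodes the scaffold that gives the Scribble module its name. It had 7 YAP5SA peaks, all inside 4.43 kb at one end of its 25 kb span on chromosome 8, from 144893123 to 144897556. Their scores were 331, 179.8, 211, 59.3, 251, 198 and 308. Of these 7 peaks, 6 scored at least 100, as did 3.15% of the YAP5SA list. The gaps between them ran from 38 bp to 1.07 kb, and their median of 0.445 kb was the shortest among the spans with more than 3 YAP5SA peaks. The first peak was the widest at 442 bp and the others ran from 104 to 318 bp. Neither TEAD nor YAP had a peak in the span, and the nearest TEAD peak was 25.5 kb from the row.

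DLG1, a scaffold of the membrane-associated guanylate kinase family, had 13 YAP5SA peaks, the most of any span, over 237 kb of its 257 kb on chromosome 3. They formed a row of 4 peaks (196786728 to 196808074), a row of 6 (196831809 to 196867182) and 3 peaks outside rows. The first row had scores of 140.4, 90.7, 300.3 and 60.6. The second had 59.6, 77.8, 54.1, 217, 82.0 and 237. Strong and weak peaks thus stood side by side in both rows. A stretch of 128 kb without any YAP5SA peak followed the 11th peak, and the last 2 peaks, with scores of 74.2 and 112, ended 16.3 and 2.65 kb before the end of the span. Widths ran from 77 to 240 bp with a median of 167 bp. No TEAD or YAP peak lay in the span, and the nearest TEAD peak to any member was 83.4 kb away.

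LLGL2, the third Scribble module gene, differed from SCRIB and DLG1 in strength. Its 3 YAP5SA peaks, on chromosome 17 from 73563416 to 73565919, scored 58.9, 62.6 and 52.1, and 1 of them was below the median of the list. They were 178, 381 and 254 bp wide. The first 2 lay 1 bp apart.

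MARK1, a kinase of the PAR-1 family that phosphorylates microtubule-associated proteins, had 7 YAP5SA peaks over 82.9 kb of its 137 kb span on chromosome 1. Their scores were 145, 96.2, 154, 61.9, 311, 535 and 59.3. The peak from 220826432 to 220826706 with the score of 535 ranked 9 in the list and was the strongest of all 52. It lay 930 bp from the peak with the score of 311. These 2 peaks and the last one, from 220835124 to 220835522, formed the only row of the span. MARK1 had wider peaks than NF2, SCRIB or DLG1, with a median of 255 bp and a range of 168 to 399 bp. The YAP list had 1 peak in the span, from 220710924 to 220711226 with a score of 66.3, which lay 41.4 kb from the nearest YAP5SA peak. The nearest TEAD peak was 307 kb from any of the 7.

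YAP1 encodes YAP itself, the protein from which YAP5SA derives. Its span on chromosome 11, 123 kb long, held 1 YAP5SA peak, from 102098183 to 102098311, with a score of 77.1 (rank 899 of 9616) and a width of 129 bp. That peak lay 5.69 kb from the end of the span. The TEAD list had 5 peaks in YAP1, the last of them beginning 19.2 kb into the span, with scores of 349, 192, 56.2, 84.6 and 101. The first of them, from 101980855 to 101981211, crossed the start of the span. TEAD peaks thus stood at 4.07 per 100 kb in YAP1, against 0.298 in the list. None of the 5 met a YAP5SA peak, and the YAP list had no peak in the span. The TEAD peak nearest to the YAP5SA peak lay 40.9 kb away.

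ZCCHC11 had 12 YAP5SA peaks over 71.5 kb of its 146 kb span on chromosome 1. A row of 8, from 52924012 to 52947687, had more peaks than any other row of the YAP5SA list, with scores of 126, 77.2, 62.0, 105, 122, 61.5, 226 and 219. A second row of 3, from 52961094 to 52975432, had scores of 51.1, 94.9 and 103, and a lone peak scored 57.3. The peaks included the narrowest of the 52, at 65 bp, and none of the 12 was wider than 238 bp. The 2 strongest, with scores of 226 and 219, lay 135 bp apart. No TEAD or YAP peak lay in the span, and the nearest TEAD peak was 160.1 kb from any of the 12.

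ILKAP had 3 YAP5SA peaks on chromosome 2 from 239080790 to 239090418, with scores of 56.9, 71.0 and 56.4 and widths of 179, 266 and 155 bp. Of these, 1 was above the median score of the list. No TEAD or YAP peak lay in the span. A TEAD peak lay 23.3 kb and a YAP peak 15.7 kb from the nearest of the 3.

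By strength the spans fell into 2 sets. In NF2, SCRIB, DLG1, MARK1 and ZCCHC11, from 4 to 6 peaks per span scored at least 100, and the highest score ran from 226 to 535. In LLGL2, ILKAP and YAP1 no peak reached 100. The rows of the list outside the spans help to place the weaker set. The list had 36 rows, of which 17 held a TEAD or YAP peak and 19 (52.8%) did not. Of those 19, 9 lay in the spans and 10 elsewhere. Each of the 10 had 3 peaks, and their highest score was 79.5. The rows of LLGL2 and ILKAP, also of 3 peaks with highest scores of 62.6 and 71.0, lay inside that range. All 5 rows of 4 or more peaks without a TEAD or YAP peak lay in the spans, which is part of how the genes were chosen.

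**Figure D3:**
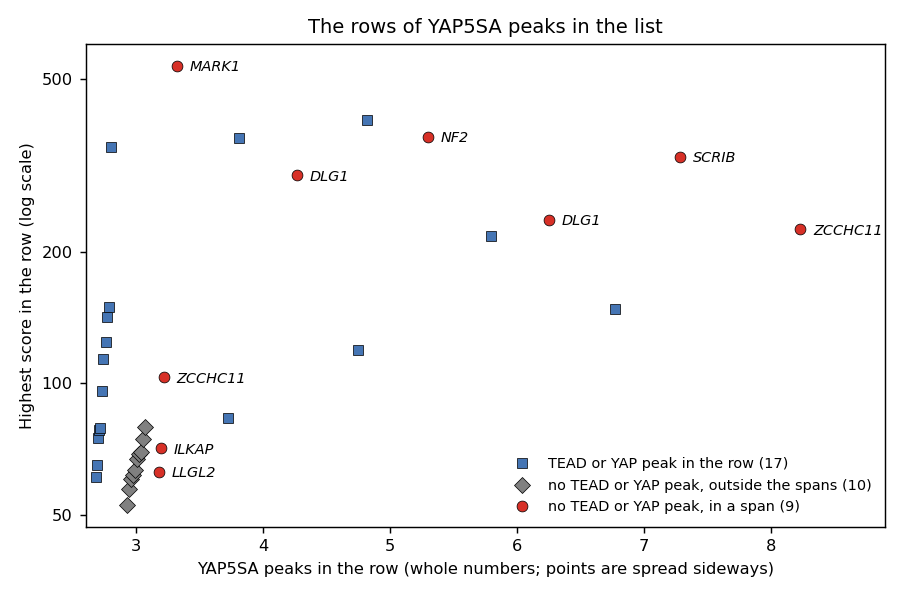
The 36 rows of YAP5SA peaks, by number of peaks and by the highest score in the row (log scale). Circles are the 9 rows in the spans, diamonds the 10 other rows without a TEAD or YAP peak, and squares the 17 rows with one. LLGL2 and ILKAP sit among the diamonds, while the other circles lie above all diamonds.

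The same windows drawn over the whole genome give the background of each count. The chromosomes were divided into adjacent windows as long as each span, and windows with at least as many YAP5SA peaks and no TEAD or YAP peak were counted. For NF2 these were 2 of 32194 windows (0.00621%), for SCRIB 2 of 123668 (0.00162%), for MARK1 2 of 22558 (0.00887%) and for ZCCHC11 1 of 21163 (0.00473%). All of these windows touched a span of the 8 genes. For DLG1 it was 0 of 12017 windows (0%), as the grid divides its own peaks between windows. LLGL2 and ILKAP were less rare, with 45 of 61829 (0.0728%) and 34 of 90927 (0.0374%), of which 5 and 8 touched a span. A single YAP5SA peak, as in YAP1, was found in 4873 of 25125 such windows (19.4%). The spans of NF2, MARK1 and YAP1 themselves hold a TEAD or YAP peak. With such windows allowed, the counts were 5 for NF2 (0.0155%), 5 for MARK1 (0.0222%) and 7580 for YAP1 (30.2%). Of these windows 3, 4 and 14 touched a span of the 8 genes. Under this setting, which their own spans meet, some windows for NF2 and MARK1 thus lay elsewhere.

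The strong peaks of the spans were narrow for their score. The widths come from the list on which the genes were chosen and are a description. Of all YAP5SA peaks with a score of at least 100, the 25 in the spans had a median width of 173 bp (quartiles 161 and 222). For the 182 at a TEAD peak the median was 346.5 bp (290.5 and 459), and the 93 outside the spans that met neither list stood at 252 bp (216 and 306). The median score of the 25 was 198, above the 150.4 and 109 of the other 2 sets. Of the 25, 21 (84%) were narrower than 250 bp, the fragment size given in the labels, against 15 of the 182 (8.24%) and 45 of the 93 (48.4%). With the minimum score at 75 the medians were 168 bp for the spans, 308 bp at a TEAD peak and 209 bp for those that met neither list, and at 150 they were 181, 436 and 348 bp. Over the whole list, where most peaks are weak, 87.7% were narrower than 250 bp. With weak peaks included the contrast was small: the median width was 170 bp for the 52 peaks and 164 bp for the list. Peaks of 1 library are not replicates, so no p is given, and whether the narrow peaks follow the edges of exons was not tested.

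**Figure D4:**
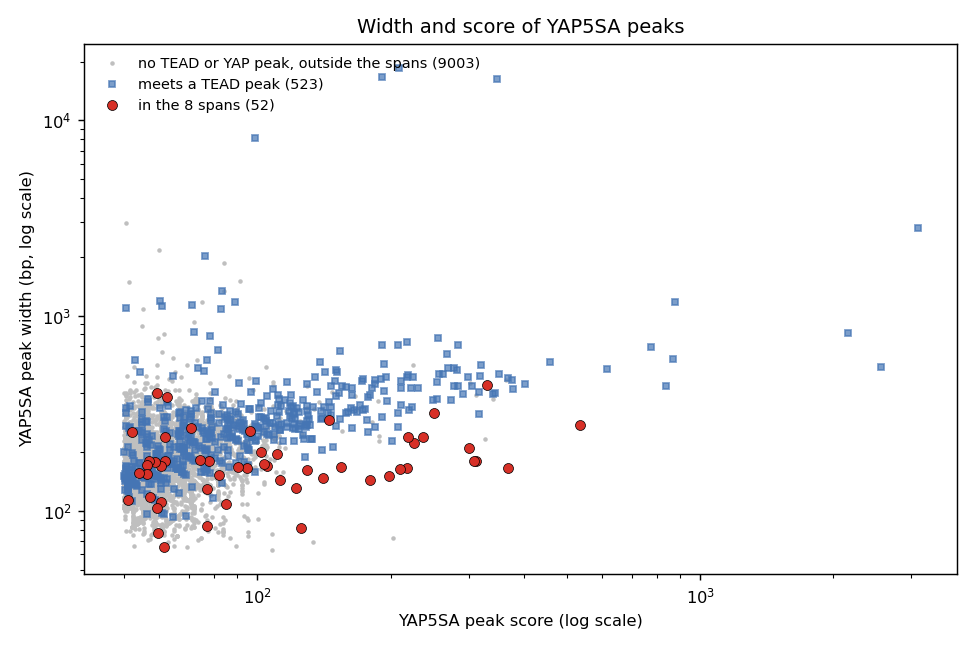
Width (bp) and score of the YAP5SA peaks, both on log scales, for the 52 in the spans (circles), the 523 that met a TEAD peak (squares) and the 9003 outside the spans that met neither list (dots). The 38 that met a YAP peak alone are not drawn. At scores of 100 and above the squares widen with score, and most circles stay below 250 bp. The median width of the circles was 173 bp at a score of at least 100 and 181 bp at 150. At 200 it was 216.5 bp and at 300 it was 196 bp.

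The spans also took a large part of the strong YAP5SA peaks without a partner. Of the 118 YAP5SA peaks with a score of at least 100 that met neither TEAD nor YAP, 25 (21.2%) lay in the 8 spans. At a score of at least 75 it was 33 of 797 (4.14%), at 150 it was 15 of 29 (51.7%), at 200 it was 12 of 19 (63.2%) and at 300 it was 6 of 11 (54.5%). Among the 100 strongest YAP5SA peaks 25 met neither list, and 14 of these 25 were in NF2, SCRIB, DLG1, MARK1 or ZCCHC11. The strongest of the other 11 lay on chromosome 1 from 101665996 to 101666460 (score 365, width 465 bp) and on chromosome 2 from 205415005 to 205415380 (score 341, width 376 bp). Neither belonged to a row. They were named after their values were seen. The choice of genes rested on the same list, so these shares describe where its partnerless strong peaks lie and support nothing further.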

How the data were processed

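Peak lists of 1 YAP, 1 TEAD and 1 YAP5SA library were used as deposited. Reads were aligned to hg19 with Bowtie2, per the submitters' processing notes. The peak caller's score was deposited by the authors with each peak, whose name begins with MACS. Its scale is not stated. The caller's threshold and the control library were likewise not given in the sources used here. Scores were ranked within their own list only. Coordinates were read as half-open and are printed counted from 1. The start of 1 TEAD peak below 0 was set to 0. Fragments were about 250 bp, per the labels' protocols.

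The gene spans are hg19 positions in kb given for this work and were not checked against an annotation. The genes and measures were chosen with earlier results of these data known. All 8 genes are named, beside their YAP5SA, TEAD and YAP peaks. Overlap meant at least 1 bp. Other genes of the pathway were not located, since no hg19 annotation was used. Overlap counts equalled those of bedtools 2.31.1. On simulated data 100 of 100 planted row peaks and 200 of 200 overlaps were recovered in a list of 9696 peaks. Python 3.11.15, numpy 2.4.6, pandas 2.3.3 and matplotlib 3.10.9 were used. The alternatives are in the closing section, and the score minimums were chosen after seeing the data.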

Additional observations from a re-analysis of the deposited data

How the results depend on the processing

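Of 80 recomputed values for 30 counts and medians, 61 stayed within 1.5 times the reported count or within 1 SD of the reported median. With peak edges within 1 kb or 5 kb counted as meeting, 1 YAP5SA peak of the spans met another list, the NF2 peak beside the YAP peak, against 0 by overlap. With neighbours within 5 kb, 17 YAP5SA peaks lay in rows in place of 42. The fall came from the shorter distance itself: DLG1, MARK1 and ILKAP had no row left, and SCRIB kept 7 peaks. With neighbours within 25 kb, 48 lay in rows, and MARK1 had 6 in place of 3. Limited to peaks at or above the median score of the list, 46 of the 52 peaks remained, ILKAP had 1 in place of 3, and the rows of LLGL2 and ILKAP ended. Under that limit 30 peaks lay in rows in place of 42, with DLG1 at 7 in place of 10 and ZCCHC11 at 8 in place of 11. The median width of strong YAP5SA peaks of the spans was 168 bp at a score of at least 75 and 181 bp at 150, against 209 and 348 bp for those outside that met neither list. The other exceptions were the NF2 and ZCCHC11 peaks in rows with neighbours within 5 kb (3 and 4) and counts of background windows. Replicates could not be left out in turn. No paired analysis was possible because there is a single library in each group. The comparison of peaks with exons was not run for want of exon positions on hg19. Read depth is unknown, so a span without a TEAD or YAP peak cannot be read as free of binding.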
